A study of Mus musculus with 2 samples.

Results

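The genes described here are the protein-coding genes of the mouse whose symbols begin with Ube2, most of which encode ubiquitin-conjugating (E2) enzymes. The symbol rule found 38 genes of 23450 protein-coding genes with a known start. All 38 were in the Gencode vM1 annotation of mm9, 2 of them under an older symbol without the prefix. In the RefSeq annotation of mm10 there were 37, and Ube2nl is listed there as a pseudogene. Of the 38, 37 encode E2 enzymes or E2-like proteins, and Ube2cbp encodes a ubiquitin ligase also named Ube3d. The transcription factor USF1 was mapped by ChIP-seq in CH12.LX, a female mouse B-cell lymphoma line of the strain B10.H-2aH-4bp/Wts. The series holds 1 group, for which the labels name no treatment or genetic change, with 2 biological replicates of the same line. The lists hold bound regions and no expression values, so the labelled cell type was not checked against markers. A gene was called bound when a USF1 summit, the point of highest signal in a region, lay within 1 kb of any of its annotated 5′ ends, in the authors' optimal mm10 list or in their mm9 list. Signal is the authors' own value for each region, on a scale that is not given, so it was compared only within a list. The family was chosen by symbol, but it was proposed with the summit positions and signals of these lists known, so its counts and levels of binding are a description and were not tested.

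Ubiquitin is passed along a chain of enzymes: an E1 enzyme activates it, an E2 enzyme carries it as a thioester, and an E3 ligase helps move it to a target protein. The E2 largely sets which kind of ubiquitin chain is built, and separate E2 enzymes carry ubiquitin-like proteins such as NEDD8 and ISG15. Some of these enzymes act in protein breakdown by the proteasome, others in DNA repair, mitosis or signalling, and in B cells ubiquitin chains also carry signals to NF-kappaB. USF1, which belongs to the basic helix-loop-helix family with a leucine zipper, binds the palindromic E-box CACGTG.

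Within 1 kb of a start, the highest signals in the family lay at Ube2b and Ube2q1, with optimal values of 579 and 421, and the other bound optimal regions were at 56.7 or less. Beyond 1 kb, Ube2g1 had a site of 278 and Ube2v1 one of 158. The upstream stretches of Ube2b and Ube2q1 are shown because they hold the strongest summits of the family. Each runs 5′ to 3′ on the gene's strand in mm9, from 50 bp beyond the summit to the base before the annotated 5′ end, with every CACGTG in capitals. The Ube2b stretch is chr11:51814265-51814418 on the minus strand and the Ube2q1 stretch is chr3:89577312-89577530 on the plus strand. Neither overlaps an annotated untranslated region, and the Ube2b summit fell in an exon of Gm12204 and an intron of Gm16953.
Ube2b: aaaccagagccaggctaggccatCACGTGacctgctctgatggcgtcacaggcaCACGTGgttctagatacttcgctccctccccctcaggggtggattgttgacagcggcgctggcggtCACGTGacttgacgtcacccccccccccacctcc
Ube2q1: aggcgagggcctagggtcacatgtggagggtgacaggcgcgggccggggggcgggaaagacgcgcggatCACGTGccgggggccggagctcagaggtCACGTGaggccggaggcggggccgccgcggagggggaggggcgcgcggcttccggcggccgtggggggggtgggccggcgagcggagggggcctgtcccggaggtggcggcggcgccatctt
The Ube2b stretch holds 3 copies of the E-box and the Ube2q1 stretch holds 2.

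Other E-boxes at summits near Ube2 starts are shown in windows of 30 bases on the gene's strand in mm9, with the E-box in capitals. CATGTG is the reverse complement of CACATG, the related E-box with a CA centre. The Ube2c window is chr2:164595138-164595167 and the Ube2f window chr1:93146713-93146742. The last 3 come from sites between 1 and 5 kb from a start: Ube2g1 at chr11:72422044-72422073, Ube2v1 at chr2:167459115-167459144 and Ube2m at chr7:13620786-13620815. Ube2v1 and Ube2m lie on the minus strand and the others on the plus strand.
Ube2c: gggcggcgaataCACGTGgaccggtccttg
Ube2f: caaaggtcttgaCACATGgcccaccctcag
Ube2g1: acaatgccgcccCACGTGctgccagattta
Ube2v1: gacgctttgtgtCATGTGacatgtgaagca
Ube2m: ttttttgaccacCACGTGattatggtcggt
The Ube2v1 window holds a second copy in lower case, next to the one in capitals.

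Of the 38 genes, 10 were bound (26.3%, 95% Wilson interval 15.0 to 42.0), beside 15.3% of all 23450 genes by the same rule. The difference was not tested. The bound genes described here are Ube2b, Ube2c, Ube2d3, Ube2e3, Ube2f, Ube2g1, Ube2q1, Ube2v1 and Ube2z. All 10 were bound in the mm9 list, where 14.9% of all genes were. In the optimal mm10 list 6 of 37 were bound, namely Ube2b, Ube2c, Ube2e3, Ube2f, Ube2q1 and Ube2v1, and the share of 16.2% was near the 12.5% of all genes. The conservative mm10 list also held 6 of 37, where 11.7% of all genes were bound, with Ube2z in place of Ube2v1. Sites in both the optimal and the mm9 list lay at 6 of 38 genes, beside 10.2% of all genes.

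**Figure D1:**
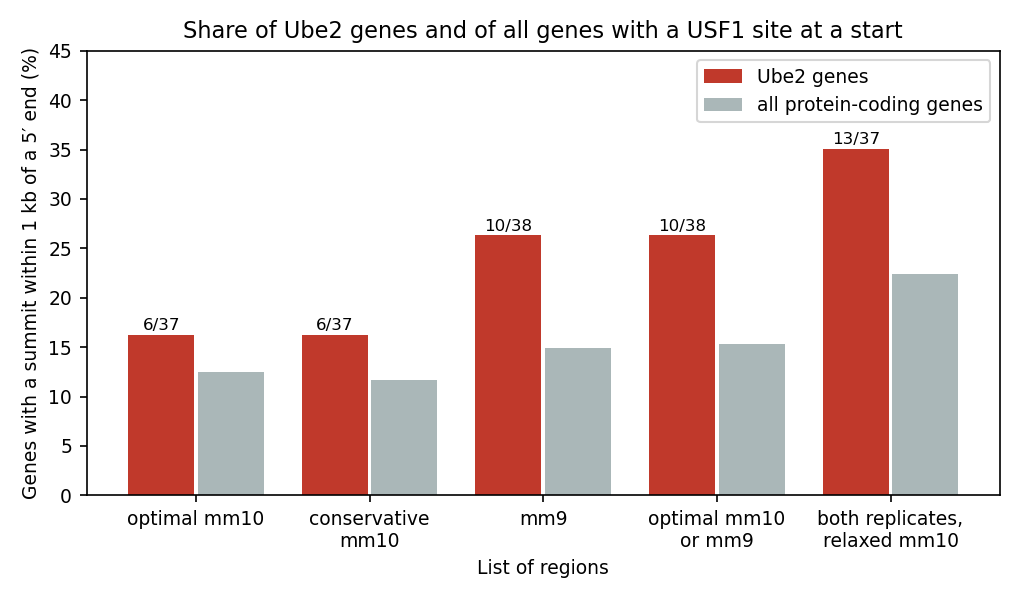
Percent of Ube2 genes (red, with the count above each bar) and of all protein-coding genes (grey) that had a summit within 1 kb of a 5′ end, by list of regions. The Ube2 share was 16.2% in both thresholded mm10 lists and 26.3% in the mm9 list, beside 12.5%, 11.7% and 14.9% of all genes; the last pair counts genes with a relaxed region in both replicates (35.1% and 22.4%).

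Ube2b and Ube2a encode the mouse RAD6 proteins, which work with Rad18 on the replication clamp PCNA and with Rnf20 and Rnf40 on histone H2B. The Ube2b region had a signal of 290 in replicate 1, where it ranked 33 of 25978 regions, and 291 in replicate 2, where it ranked 88 of 44551. Both replicates therefore placed it near the top of their lists, at nearly equal values (log2 ratio 0.0024). In the optimal list it had a signal of 579 and rank 43 of 8108, above 98.4% of the 2542 regions within 1 kb of a gene start. In the mm9 list it was at 5497, rank 3 of 10624 and above 99.9% of the 3239 peaks near gene starts. Its optimal region, chr11:52000642-52001020 in mm10, had its summit 50 bp upstream of a Ube2b start and 6 bp upstream of a start of Cdkl3, a kinase gene on the other strand, so the region cannot be assigned to one of them. In the mm9 annotation no other protein-coding gene had a 5′ end within 1 kb of the Ube2b summit. A further RefSeq 5′ end of Ube2b lay 3309 bp upstream of that summit.

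Ube2b was the only Ube2 gene with 3 copies of CACGTG within 250 bp of a 5′ end. They lay 31.5, 97.5 and 128.5 bp upstream of its mm9 start, counted to the E-box centre. With their neighbouring bases the inner and outer copies read TCACGTGA and the middle one, 6.5 bp from the summit, reads ACACGTGG. Over all genes, 0.567% had 3 or more copies in that window, and 67.5% of those 126 genes were bound in the mm9 list. Of all peaks near gene starts, 3.77% had 2 or more copies within 50 bp of the summit, as Ube2b did, and their median signal was 1392.

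The other RAD6 gene, Ube2a, was not bound, and no relaxed region of replicate 1 lay within 1 kb of its start. Replicate 2 held a relaxed region there with a signal of 8.16, below the median of 8.45 of that list. Relaxed lists mix peaks with background, per the deposited readme files. No CACGTG lay within 250 bp of a Ube2a start.

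Ube2q1, an E2 with a long N-terminal extension, was the second gene with strong binding. Its region had a signal of 208 in replicate 1 and 215 in replicate 2, with ranks 459 and 586. Its optimal signal was 421, rank 528, above 82.8% of the regions near gene starts, and its mm9 signal was 1794, rank 204. The mm10 region was chr3:89773158-89773575, with the summit 225 bp upstream of the start at 89773609. In mm9 the summit lay 169 bp upstream of the Ube2q1 start and 200 bp upstream of a start of 4632404H12Rik, so the peak cannot be assigned to one of them. In the mm10 annotation no other protein-coding gene had a 5′ end within 1 kb of the Ube2q1 summit. The CACGTG nearest the summit reads TCACGTGC with its flanks and the copy 119.5 bp upstream of the start reads TCACGTGA. The related gene Ube2q2 was not bound: it had no relaxed region in replicate 1 and one of signal 6.90 in replicate 2.

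**Figure D2:**
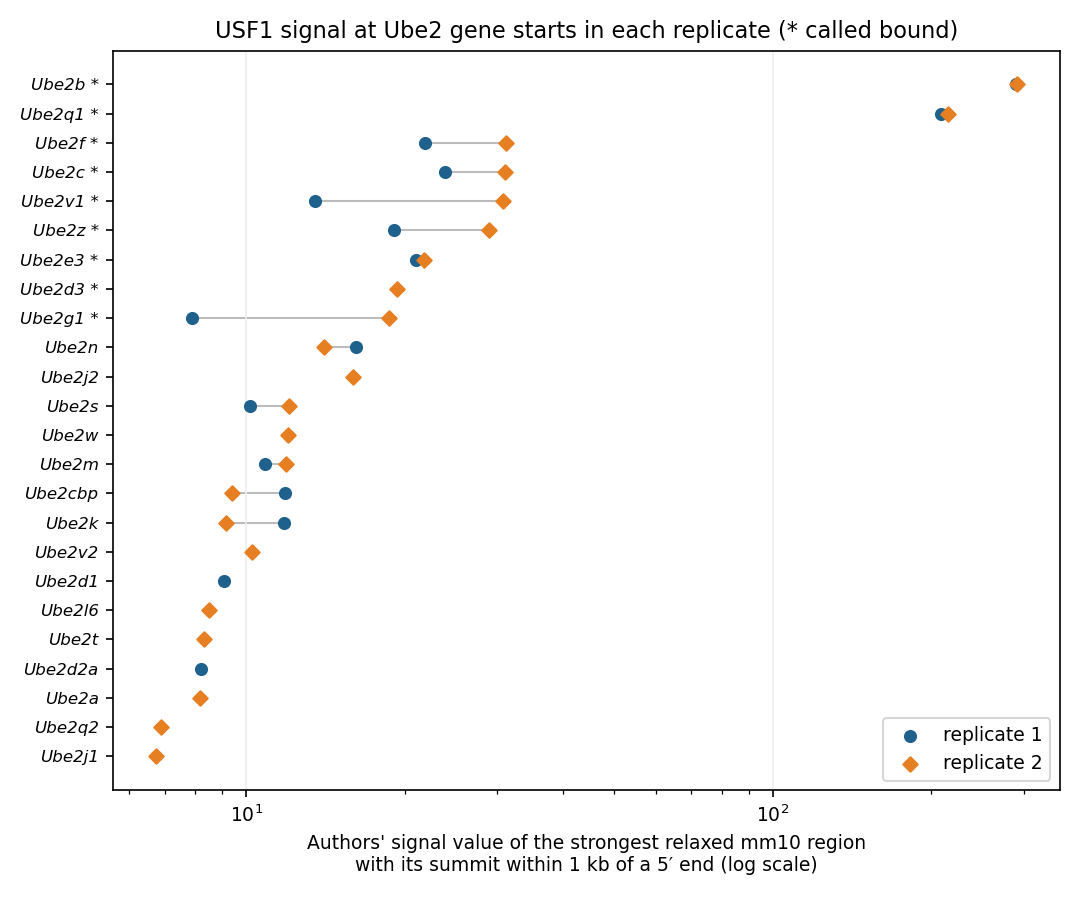
Signal of the strongest relaxed mm10 region with its summit within 1 kb of a 5′ end, on a log axis, for each Ube2 gene with a region in replicate 1 (circles) or replicate 2 (diamonds); an asterisk marks a gene called bound. Ube2b and Ube2q1 lie at 208 or more in both replicates and every other gene at 31.2 or less.

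Ube2c, Ube2s and Ube2t serve mitosis and DNA repair. Ube2c starts ubiquitin chains with the anaphase-promoting complex, Ube2s extends them, and Ube2t acts in the Fanconi anaemia pathway. Only Ube2c was bound of these 3, with a signal of 23.8 in replicate 1 and 31.1 in replicate 2. Its optimal signal of 56.7 was above 25.9% of the regions near gene starts, so most were stronger. The region was chr2:164769531-164769830 in mm10, with the summit 248 bp upstream of the start, and its mm9 peak of 71.5 held 1 copy of CACGTG, 20.5 bp from the summit. Ube2s had a relaxed region in both replicates, at 10.2 and 12.1, that reached neither thresholded list. Ube2t had one in replicate 2 alone, at 8.33.

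The UBE2D and UBE2E enzymes work with many RING ligases, and each of these families had 1 bound gene with a weak site. Of the 6 UBE2D genes, Ube2d3 was bound, and only in the mm9 list, with a signal of 36.8 at a summit 185 bp upstream of its start. In mm10 it had no relaxed region in replicate 1 and one of 19.3 in replicate 2. The 101 bases around its mm9 summit, chr3:135101026-135101126 on the plus strand, are given as the example of a site without an E-box.
Ube2d3: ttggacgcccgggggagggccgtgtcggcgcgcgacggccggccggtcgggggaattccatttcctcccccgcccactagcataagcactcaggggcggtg
Of its family, Ube2d1 and Ube2d2a had weak relaxed regions in replicate 1 alone (9.06 and 8.21), and Ube2d2b, Ube2dnl1 and Ube2dnl2 had none in any mm10 list. Ube2e3 was bound in all thresholded lists, with 21.0 in replicate 1 and 21.7 in replicate 2, and an optimal signal of 43.1. Its optimal region, chr2:78868424-78868723, had a summit 338 bp downstream of the start, and in mm9 the summit fell in the untranslated first part of the Ube2e3 transcript. Ube2e1 and Ube2e2 had no region in either replicate.

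Among the enzymes that work at the endoplasmic reticulum, Ube2g1 carried its main site in an intron. That site had a signal of 147 in replicate 1 and 132 in replicate 2, with an optimal signal of 278 and rank 1057. Its summit lay 1294 bp downstream of the start in mm10 (chr11:72608473-72608632) and 1238 bp downstream of the nearest 5′ end in mm9, where its signal was 431. It is thus just outside the 1 kb limit, and its E-box CCACGTGC was centred 0.5 bp from the summit. Ube2g1 counted as bound through a second mm9 peak, 452 bp downstream of a 5′ end, with a signal of 29.2 where the lowest in that list was 29.0. Near this position replicate 2 had a relaxed region of 18.7. The strongest of replicate 1 within 1 kb lay 249 bp upstream of the start, at 7.90. Ube2g2 was not bound at its start. Its 1 mm9 peak inside the gene, at 190 with 3 copies of CACATG, lay 7002 bp from the nearest 5′ end and also inside an intron of Sumo3. The membrane-anchored Ube2j1 and Ube2j2 were not bound and had relaxed regions in replicate 2 alone, at 6.75 and 15.96.

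Ube2v1 encodes a variant without the catalytic cysteine, which pairs with Ube2n to build chains used in signalling. It had 2 optimal regions within 5 kb, and the stronger was the farther. The region at the start, chr2:167631985-167632284, had a summit 115 bp upstream and an optimal signal of 45.6. There the replicates differed most of the bound optimal regions, with 13.5 in replicate 1, rank 9998, and 30.7 in replicate 2, rank 5048 (log2 ratio 1.18). The conservative list did not hold it. The farther region, chr2:167633480-167633779, lay 1610 bp upstream with 69.0 and 87.1 in the replicates and an optimal signal of 158. In mm9 it held 2 copies of CACATG and no CACGTG, at a signal of 206, and a further peak of 37.2 lay 2523 bp upstream. All 3 mm9 summits fell in introns of Tmem189, an overlapping gene on the same strand. Ube2n, the catalytic partner, was not bound but had a relaxed region in both replicates, at 16.2 and 14.0. Ube2v2 had one in replicate 2 alone, at 10.2.

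The remaining chain-building enzymes Ube2k, Ube2h and Ube2r2 were not bound. Ube2k had relaxed regions of 11.8 and 9.14 in the 2 replicates, and Ube2h and Ube2r2 had none in either replicate. Ube2nl, listed as protein-coding in mm9, had no mm9 peak within 5 kb.

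Ube2z, which takes ubiquitin from the E1 enzyme Uba6, was bound in the mm9 list with a signal of 61.4 and a summit 39 bp upstream of its start. The conservative list held it at 46.1 (chr11:96065277-96065576 in mm10), and the optimal list did not. Its relaxed regions were at 19.1 in replicate 1 and 28.9 in replicate 2, and no E-box of either kind lay within 50 bp of the mm9 summit. Of the other ubiquitin E2 genes, Ube2w and Ube2q2 had a relaxed region in replicate 2 alone, at 12.02 and 6.90, and Ube2l3, Ube2o, Ube2ql1 and Ube2u had none in either replicate.

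Of the enzymes that carry ubiquitin-like proteins, Ube2f was bound and Ube2m and Ube2l6 were not. Ube2f and Ube2m both carry NEDD8 to cullins. Ube2f had 21.8 in replicate 1 and 31.2 in replicate 2, and its optimal region, chr1:91250053-91250352, had a signal of 47.9 and a summit 101 bp upstream of a start. Its mm9 peak of 52.7 held CACATG 2.5 bp from the summit and no CACGTG. Ube2m had relaxed regions of 10.9 and 11.9 at its start. An mm9 peak of 33.3 with CACGTG lay inside an untranslated region of Ube2m, 1174 bp downstream of its nearest 5′ end and 697 bp upstream of a start of Chmp2a. It lay 2799 bp downstream of the outermost Ube2m 5′ end, in a gene span of 3036 bp, and so near the 3′ end of the gene. Ube2l6, the ISG15 enzyme, had a relaxed region in replicate 2 alone, at 8.49.

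**Figure D3:**
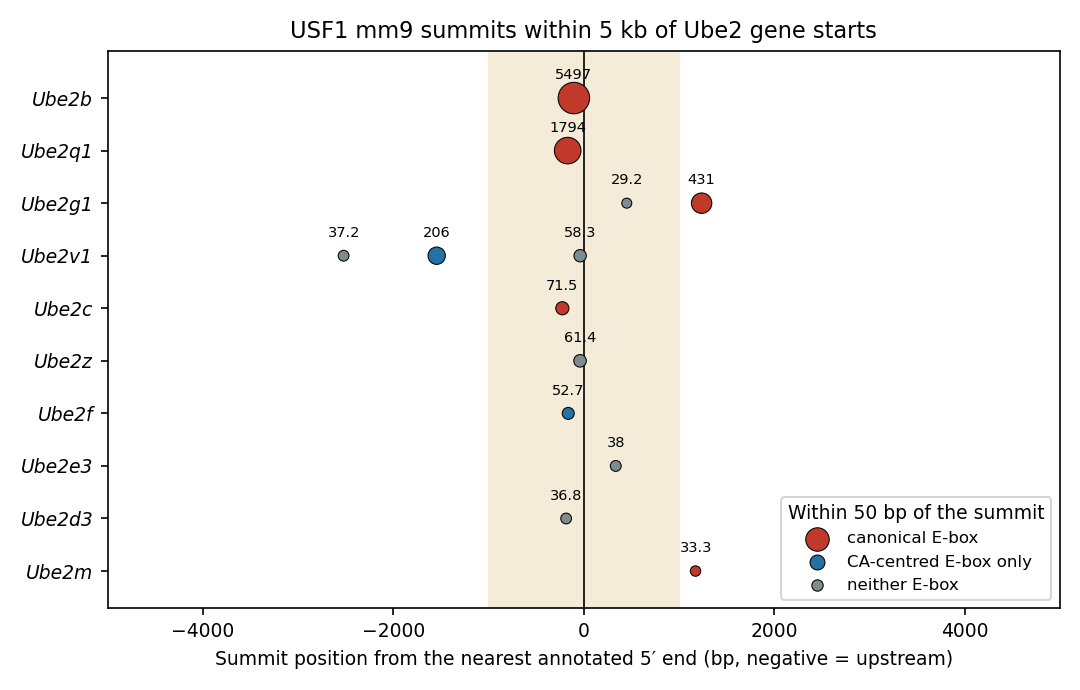
Position of the mm9 summits within 5 kb of the Ube2 gene starts described here, in bp from the nearest annotated 5′ end; point area grows with signal, which is printed above each point, colour gives the E-box within 50 bp, and the shaded band is the 1 kb limit. The summits drawn inside the band lie between 225 bp upstream and 452 bp downstream, and those outside it belong to Ube2g1, Ube2v1 and Ube2m.

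No called summit lay close to the 1 kb limit on its inner side: the farthest were those of Ube2g1 in mm9 at 452 bp and Ube2e3 in mm10 at 338 bp. The nearest beyond it in mm9 were Ube2m at 1174 bp and Ube2g1 at 1238 bp. Within 5 kb the mm9 list added only Ube2m, for 11 of 38 genes beside 20.6% of all genes, and the same 11 by either list beside 20.9%. The optimal list held 8 of 37 within 5 kb, Ube2g1 among those added, beside 16.5% of all genes. Within 500 bp all 10 bound genes still counted, where 13.4% of all genes did.

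The replicates placed signal at all 6 bound optimal regions. Among all 8108 optimal regions 99.3% were found in both, at an overlap of at least 1 bp, and since that list was derived from lists of these replicates the agreement is partly built in. The log2 ratio of replicate 2 over replicate 1 had a median of 0.21 and an SD of 0.45 over the 6 regions, beside 0.15 and 0.44 over 2521 promoter regions found in both. The 6 ratios ran from 0.0024 at Ube2b to 1.18 at Ube2v1. The median optimal signal of the 6 was 52.3, below the 118 of all 2542 regions near gene starts: Ube2b and Ube2q1 were above that median and the other 4 between 43.1 and 56.7.

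The relaxed lists hold regions above and below the authors' thresholds. The relaxed list of replicate 1 had a summit within 1 kb of 15 of 37 genes (25.5% of all genes), that of replicate 2 of 22 (36.3%) and the pooled list of 30 (57.9%). In the lists of the replicates 13 of 37 genes had a summit within 1 kb in both replicates (35.1%), where 22.4% of all genes did. Of the 27 unbound genes in the mm10 annotation, 5 had such a region in both replicates, which were Ube2s, Ube2k, Ube2n, Ube2m and Ube2cbp, the last at 11.9 and 9.41. A further 2 had one in replicate 1 alone, 8 in replicate 2 alone and 12 in neither. Of all 18016 unbound genes in that annotation, 9.29% had one in both replicates, 3.51% in replicate 1 alone and 15.8% in replicate 2 alone, and the differences from the Ube2 counts were not tested. At the unbound Ube2 genes no region exceeded 16.2 in replicate 1 or 15.96 in replicate 2. Bound genes were called from lists derived from these replicates, so low signal at unbound genes is partly built in. Bound and unbound genes overlapped in replicate 1: Ube2b, Ube2c, Ube2e3, Ube2f, Ube2q1 and Ube2z had 19.1 or more, but Ube2v1 had 13.5, Ube2g1 had 7.90 and Ube2d3 had no region.

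Sites with CACGTG included the strongest of the family, and most weak sites lacked it. Of the 10 mm9 peaks within 1 kb of a Ube2 start, 4 had CACGTG within 50 bp of the summit (Ube2b, Ube2q1 and Ube2c among them), 1 had CACATG alone (Ube2f) and 5 had neither (Ube2d3, Ube2e3, Ube2g1, Ube2v1 and Ube2z). Over all 3239 peaks near gene starts the shares were 56.6%, 13.3% and 30.1%. Signal was 5497, 1794 and 71.5 at Ube2b, Ube2q1 and Ube2c, and in the group with neither it ran from 29.2 to 61.4. The groups with CACGTG and with neither overlapped in signal. The 3 peaks at or above the list's median signal of 62.9 all held CACGTG, as did 69.9% of all such peaks near gene starts. Of the 7 weaker ones 1 held it, beside 34.6%. With 10 peaks these counts are a description.

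**Figure D4:**
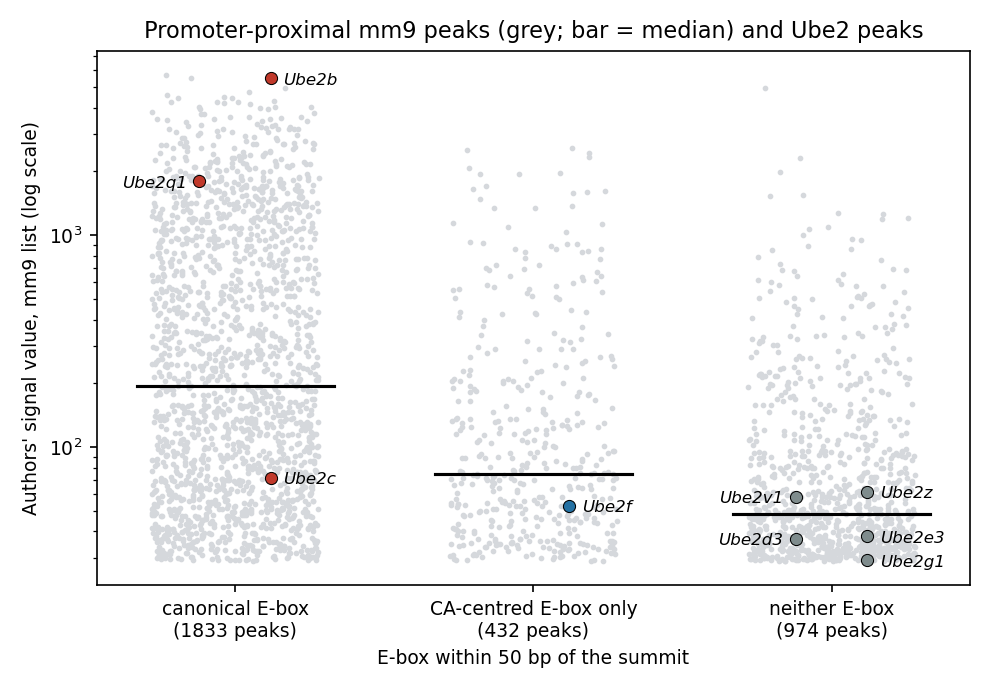
Signal of the 3239 mm9 peaks within 1 kb of a gene start (grey, log axis) by the E-box within 50 bp of the summit, with a bar at each group's median and 9 Ube2 peaks named. Ube2b and Ube2q1 lie above the CACGTG median of 195 and Ube2c, at 71.5, lies below it. The 5 Ube2 peaks with neither E-box lie between 29.2 and 61.4, around that group's median of 48.2.

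GC boxes, the GGGCGG sequence bound by SP and KLF factors in CpG-rich promoters, lay within 50 bp of 6 of the 10 Ube2 summits, on either strand, and of 33.7% of all summits near gene starts. They were found at Ube2c, Ube2d3, Ube2g1, Ube2q1, Ube2v1 and Ube2z. The CCAAT sequence lay at Ube2c and Ube2f, which is 2 of 10 beside 20.0% of all such summits. None of the 10 held the ETS string CCGGAAGT, the CRE string TGACGTCA or the AP-1 string TGAGTCA within 50 bp, and 3.52%, 1.95% and 2.53% of all did. The CpG content of Ube2 promoters varied. The median ratio of observed to expected CpG dinucleotides, over 500 bp to each side of the outermost mm9 5′ end, was 0.845 in the 10 bound and 0.841 in the 28 unbound genes, where all bound genes had 0.741 and all unbound genes 0.470. Single genes lay far from these medians, with 0.485 at the bound gene Ube2e3 and 0.0679 at the unbound gene Ube2l3, the lowest of the family. The Ube2l3 window lay around its outermost end at chr16:17202742 and did not reach its other mm9 ends, such as those at 17201566 and 17201587.

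A canonical E-box near an annotated 5′ end was not always bound. CACGTG lay within 250 bp of a 5′ end in 7 of the 38 genes (18.4%, beside 17.2% of all genes), and 4 of these 7 were bound in mm9, where 41.9% of all genes with such a copy were. Of the 31 Ube2 genes without a copy 6 were bound, beside 9.26% of all genes. The 3 genes with an unbound copy were Ube2cbp, Ube2q2 and Ube2l6. All 3 had weak relaxed mm10 regions within 1 kb of a start. Those of Ube2cbp were in both replicates, at 11.9 and 9.41, and those of Ube2q2 and Ube2l6 in replicate 2 alone. Their windows of 30 bases are shown for comparison with those at summits, on the gene's strand in mm9. The coordinates are chr9:86345406-86345435 and chr9:86358476-86358505 for Ube2cbp (minus strand), chr9:54996890-54996919 for Ube2q2 and chr2:84646214-84646243 for Ube2l6 (both plus). Copy 1 of Ube2cbp lay near an inner mm9 5′ end of the gene, at 86345481, where the outermost is at 86358557. The Ube2l6 copy also lay near an inner end, at 84646386, where the outermost is at 84638985.
Ube2cbp, copy 1: ctgaatccagccCACGTGagtaggagcggc
Ube2cbp, copy 2: ctgctacggccgCACGTGctcccaccctgt
Ube2q2: cgataggccgcgCACGTGtctggccagagg
Ube2l6: tgtgtatgtgtaCACGTGtgtgtgatggga
With flanks these read CCACGTGA, GCACGTGC, GCACGTGT and ACACGTGT. Among 1830 promoter peaks with CACGTG, CCACGTGA or its reverse complement was the form nearest the summit in 26.2%, GCACGTGC in 2.30%, ACACGTGC, the reverse complement of the Ube2q2 form, in 2.62% and ACACGTGT in 1.31%. At Ube2 summits, the form nearest the summit at Ube2b and Ube2c, ACACGTGG, made up 6.67% with a median signal of 81.6. The inner and outer Ube2b copies read TCACGTGA, a form that made up 18.5% with a median of 813. The TCACGTGC of Ube2q1, counted with GCACGTGA, made up 10.5% with a median of 352. All these shares are of peaks, and the share of each form among all promoter copies, bound or not, is not given here.

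Other genes of the ubiquitin pathway, from a list of 56 that leaves out the Ube2 symbols, were bound at 18 (32.1%, beside 15.3% of all genes). By class, 3 of 10 ubiquitin and ubiquitin-like genes, 3 of 9 E1 genes, 2 of 7 E2 genes with other symbols and 10 of 30 E3 genes were bound. Sumo3, a ubiquitin-like protein gene, had an optimal signal of 364 and the E1 subunit gene Sae1 one of 547, while the E1 subunit gene Uba2 was not bound. In the NEDD8 branch, Ube2f works with Rnf7 and Cul5. Cul5 had 518 and Rnf7 32.2, and Cul3, a cullin served by Ube2m, had 493, while Ube2m itself, Nedd8, Uba3 and Nae1 were not bound. Uba6, which charges Ube2z, had 208 with neither E-box at its mm9 summit, and Uba1, the main ubiquitin E1, had 61.0.

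Of the ligases named above as working with Ube2b, Rnf40 was weakly bound, at 30.97 in the mm9 list alone, and Rad18 and Rnf20 were not bound. Other partners of Ube2b were not looked at. In the anaphase-promoting complex Anapc11 had an optimal signal of 104, and Anapc2, Cdc20 and Fzr1 were not bound. The E2-like autophagy enzymes Atg3 and Atg10, which do not carry the Ube2 name, had 552 and 297, and the Atg3 value was exceeded among the E2 genes listed only by Ube2b. Of the remaining ligases Ube4b had 482 and Stub1 375. Sites in the mm9 list alone lay at Cul4b with 334, Rps27a with 38.2, Ubb with 37.96, Ube3c with 35.7 and Rbx1 with 32.8.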

How the data were processed

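The deposited lists give regions from 2 ChIP-seq replicates of 1 group: relaxed mm10 lists per replicate (25978 and 44551 regions) and pooled (300000), optimal (8108) and conservative (7356) mm10 lists thresholded by IDR, and an mm9 list (10624), per the deposited readme files. Neither peak caller nor aligner is named in the labels or file headers. Depth is unknown, so no interval for a signal could be given. Column 7 of the deposited lists was used as signal; the summit is the start plus column 10, an offset in bp by the authors' narrowPeak format. All coordinates are 1-based and none was converted. Starts came from RefSeq GRCm38.p6 (32212 5′ ends of 21532 genes, strand from its promoter table or else Gencode vM1) and every transcript of Gencode vM1 genes in NCBIM37, the assembly of mm9. Some genes have a single mm10 start. Windows were searched on both strands. The symbol rule named the Ube2 genes shown, and the members and lists were chosen with earlier results of these data known. Counts cover all members, and results for some genes are not reported here. No test was made. Alternatives for the distance, list, signal threshold, overlap, window and 5′ ends, and single replicates, were tried; Wilson intervals cover counting error only. Python 3.11.15, pandas 2.3.3 and pysam 0.24.0 were used, and the position step was tested on simulated data.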

Additional observations from a re-analysis of the deposited data

How the results depend on the processing

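The count of 10 bound genes was the same at 500 bp, in the mm9 list alone, with a single 5′ end per gene and, as alternatives chosen after seeing the data, with protein-coding transcripts only in mm9 and without Ube2cbp; it was 11 at 5 kb. It was 6 in the optimal mm10 list alone, 6 in the conservative list and 3 (Ube2b, Ube2c and Ube2q1) when only regions at or above their list's median signal counted. With the strongest 8108 regions of a single replicate in mm10, leaving out each replicate in turn gave 6 to 9 genes. Without replicate 2 there were 6, and without replicate 1 there were 9. Shares of all genes are not given for the median-signal, single 5′ end and single-replicate settings. Those counts therefore have no background beside them. The settings with lower counts used fewer regions, mm10 starts only, or both, and what lowered the counts was not tested. The 2 single-replicate counts differed, although both used 8108 regions and mm10 starts. The number of bound regions found in both replicates stayed at 6 for both other overlap rules, and the count with CACGTG was 3 at 25 bp, 4 at 100 bp and 3 among stronger peaks, beside 4. Median signal was 52.3 at 500 bp and in the conservative list and 56.7 at 5 kb, and the median replicate ratio was 0.21 under both alternatives. No paired analysis was possible because there is 1 group. Unknown depth and 2 replicates limit every weak site, since those near 30 in the mm9 list lie at its lower end.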
